A study of Mus musculus with 6 samples.

Results

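The Hox genes of the 4 clusters were taken from the gene table of N2a cells as every protein-coding entry whose symbol is Hoxa, Hoxb, Hoxc or Hoxd followed by a number. The rule found 39 genes among 54532 genes, of which 22046 are protein-coding, and the symbol Hoxd4 stands on 2 entries of the table. N2a (Neuro2A) is a mouse neuroblastoma line, a tumor of the sympathetic nervous lineage, labeled with the strain C57BL/6 and kept in MEM with fetal bovine serum. RNA was sequenced from 3 libraries of cells labeled as transfected with a negative control siRNA (si-NC) and 3 transfected with an siRNA against circRtn4, a circular RNA of the Rtn4 gene (si-circRtn4). All 6 libraries are therefore of transfected cells, no untransfected sample is part of the comparison, and no medium other than the growth medium is given in the labels. The study's general methods describe a change of transfected N2a cells to differentiation medium with retinoic acid, an inducer of Hox genes, before harvest, and do not say whether this was done for the sequenced cells. Nothing in the labels says whether the replicates were grown separately, so the p-values here measure only the spread between these libraries, which may be technical. Levels are given as FPKM (fragments scaled by the authors for gene length and for the size of the library), so that genes of different length can be compared.

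Hox proteins are transcription factors that bind DNA through a homeodomain, the part encoded by the homeobox. Their genes lie side by side in clusters, and in the embryo they are switched on in the order in which they lie, so that low-numbered genes mark the hindbrain and neck and high-numbered genes the lumbar and tail levels. Genes of the same number in different clusters are copies of each other and form a paralogue group. Cells that have left the embryo usually keep the set of Hox genes of the level they came from, with active and silent parts of a cluster carried on by trithorax and Polycomb proteins.

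Nearly all of the Hox RNA came from 1 cluster. A gene was taken as expressed where its 6 libraries averaged 1 FPKM or more, and by this measure 6 of the 39 genes (15.4%) were, against 48.9% of all protein-coding genes. All 6 belong to the HoxC cluster: Hoxc4, Hoxc5, Hoxc6, Hoxc8, Hoxc9 and Hoxc10. None of the 11 HoxA, 10 HoxB or 9 HoxD genes reached the level. By position along the body axis, 0 of the 8 anterior genes (paralogue groups 1 to 3), 4 of the 15 central genes (groups 4 to 8) and 2 of the 16 posterior genes (groups 9 to 13) were expressed. Each of groups 4, 5, 6, 8, 9 and 10 had its HoxC copy as the only expressed member, and in groups 1, 2, 3 and 7, where the mouse has no HoxC gene, no copy from another cluster was expressed.

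**Figure D1:**
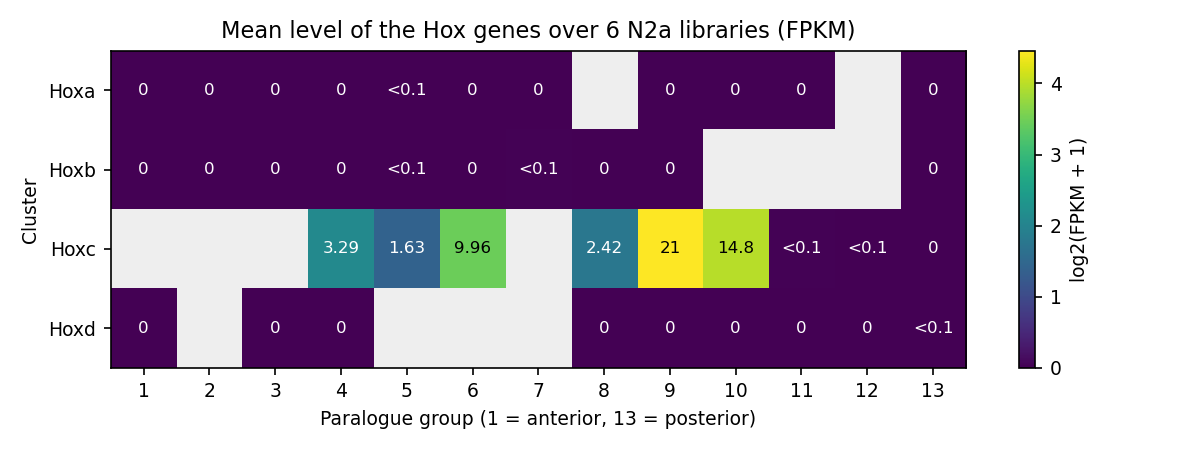
Mean FPKM of each Hox gene over the 6 libraries, with clusters in rows, paralogue groups in columns and color on a log2(FPKM + 1) scale. Grey cells are positions with no gene, and every cell above 0.1 FPKM lies in the Hoxc row, between groups 4 and 10.

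The other 33 genes lay far below this group, with no gene in between. The lowest expressed gene, Hoxc5, averaged 1.63 FPKM and the highest of the rest, Hoxc11, 0.0165 FPKM. Of the 33, 27 had no read in any library and 6 had at most 2 reads in a library: Hoxa5, Hoxb5, Hoxb7, Hoxc11, Hoxc12 and Hoxd13. Hoxc11, the neighbor of the expressed stretch, had 1 read in si-NC 3 and 2 reads in si-circRtn4 2. The highest single value of any of these genes was 0.0911 FPKM, for Hoxb7 in si-circRtn4 1. Together the 33 genes took 11 reads over all libraries, and the 6 expressed genes took 10859. A gene without reads could still have had up to 3 reads at this depth, which is 0.032 to 0.245 FPKM depending on its length and the library (counting error only). The values of all 33 genes stayed under that limit in every library of si-NC and si-circRtn4. It is the limit of a gene without reads, so it does not bound the true level of those with 1 or 2 reads. None of the 33 passed the 1 FPKM filter of the main test, and only the 6 with a read entered the fits without a filter.

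The expressed genes are neighbors. On chromosome 15, in coordinates that match GRCm38, the HoxC cluster runs over 116 kb from Hoxc13 to Hoxc4 on the plus strand. The first 3 genes, Hoxc13, Hoxc12 and Hoxc11, were silent, and the 6 that follow were all expressed. Hoxc11 ends 9.09 kb before the start of Hoxc10, and from there the expressed stretch covers 70.1 kb to the end of Hoxc4. Within the stretch, levels did not follow the order of the genes: Hoxc9 and Hoxc10 at the 5′ border were the highest, Hoxc8 next to them was low, Hoxc6 was high again, and Hoxc5 and Hoxc4 were low.

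**Figure D2:**
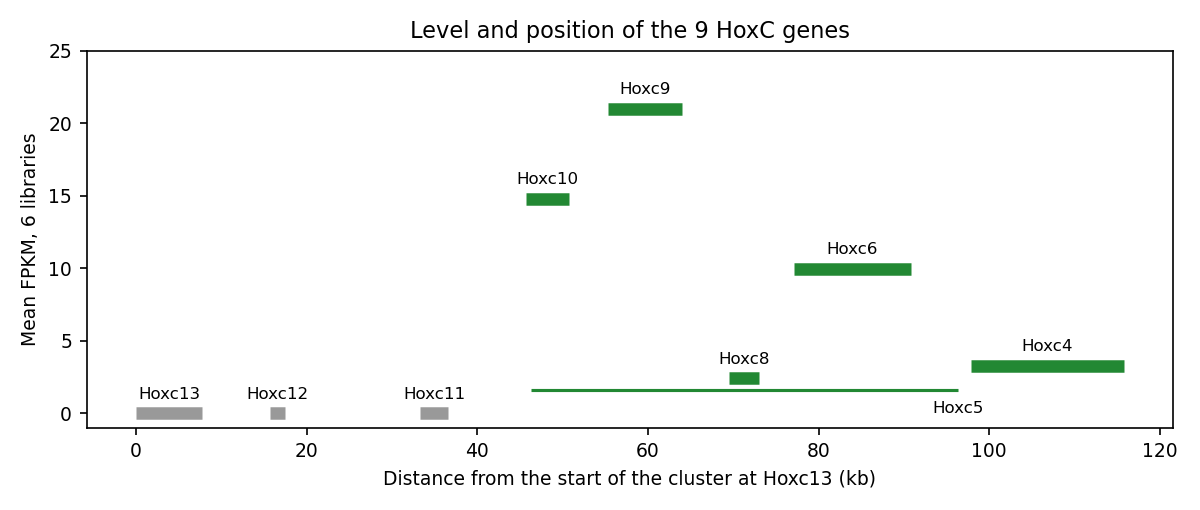
Mean FPKM over the 6 libraries of the 9 HoxC genes (vertical axis) against distance in kb from the start of the cluster at Hoxc13. Each bar spans the gene in the table, green for expressed and grey for silent genes. The thin Hoxc5 bar is long because 1 annotated Hoxc5 transcript starts in the first exon of Hoxc10.

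The homeoboxes of 5 of the expressed genes are shown because they are what the members share as transcription factors and what sets them apart. Each is 180 bases, read 5′ to 3′ on the plus strand from the GENCODE M21 transcripts (GRCm38), and the 24 capitals mark the bases that encode the core of the recognition helix, the part of the homeodomain that lies in the major groove of DNA.
Hoxc10 homeobox, chr15:102970848-102971027: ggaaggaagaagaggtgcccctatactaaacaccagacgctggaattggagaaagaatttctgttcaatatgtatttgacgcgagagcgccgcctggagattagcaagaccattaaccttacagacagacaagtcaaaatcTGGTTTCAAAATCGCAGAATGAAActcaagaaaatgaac
Hoxc9 homeobox, chr15:102983930-102984109: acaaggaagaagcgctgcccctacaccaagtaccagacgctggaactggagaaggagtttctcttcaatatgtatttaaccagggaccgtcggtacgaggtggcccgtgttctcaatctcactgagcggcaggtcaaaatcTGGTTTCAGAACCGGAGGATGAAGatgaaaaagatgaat
Hoxc8 homeobox, chr15:102992571-102992750: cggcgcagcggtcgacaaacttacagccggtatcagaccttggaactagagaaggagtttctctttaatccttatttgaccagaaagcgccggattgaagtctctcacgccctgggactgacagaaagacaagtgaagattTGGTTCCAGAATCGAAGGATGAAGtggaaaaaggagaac
Hoxc6 homeobox, chr15:103010754-103010933: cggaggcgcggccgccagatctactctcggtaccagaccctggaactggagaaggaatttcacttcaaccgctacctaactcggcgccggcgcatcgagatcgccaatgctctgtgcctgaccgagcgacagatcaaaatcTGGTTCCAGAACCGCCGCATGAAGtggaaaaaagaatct
Hoxc4 homeobox, chr15:103035663-103035842: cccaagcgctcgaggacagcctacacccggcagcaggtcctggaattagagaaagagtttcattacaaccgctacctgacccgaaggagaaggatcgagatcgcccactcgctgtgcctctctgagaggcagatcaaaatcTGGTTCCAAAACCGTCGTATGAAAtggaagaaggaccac
Over the 180 positions, 73 bases were identical in all 5 genes. Hoxc9 and Hoxc10, which also had the highest levels, were the closest of the 10 pairs with 129 identical bases, and Hoxc10 shared the fewest, 107, with Hoxc4 and with Hoxc6. Of the 60 encoded residues, 33 were the same in all 5, and the 8 residues encoded by the capitals did not differ although only 17 of those 24 bases were shared. Hoxc9 and Hoxc10 had 49 residues in common, as had Hoxc6 and Hoxc8.

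The level of each expressed gene was read in every library. Hoxc9, which sets thoracic identity in motor neurons and is known as a regulator of differentiation in neuroblastoma, had 22.5, 17.8 and 19.5 FPKM in si-NC 1 to 3 and 25.3, 18.5 and 22.4 FPKM in si-circRtn4 1 to 3. Hoxc10, a gene of the lumbar level, had 16.1, 13.1 and 12.1 FPKM in si-NC and 18.5, 15 and 13.9 FPKM in si-circRtn4. Library 1 was the highest of its group for both genes, and the groups overlapped. Hoxc6, which acts at the level of the forelimb, had 12.3, 9.07 and 9.05 FPKM in si-NC and 11.6, 9.07 and 8.68 FPKM in si-circRtn4. Again library 1 stood above the other 2 in each group, by more than the groups differed.

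The remaining 3 genes lay below 4 FPKM. Hoxc4, a gene of the neck level, had 3.20, 3.54 and 2.95 FPKM in si-NC and 3.37, 3.4 and 3.27 FPKM in si-circRtn4. Hoxc8, which acts with Hoxc6 in brachial motor neurons, had 2.55, 2.47 and 2.09 FPKM in si-NC and 2.04, 2.61 and 2.74 FPKM in si-circRtn4. Both genes had overlapping groups, and for Hoxc8 the lowest value of all 6 libraries was si-circRtn4 1 and the highest si-circRtn4 3. Hoxc5, the copy of group 5, had 2.23, 1.53 and 1.90 FPKM in si-NC and 1.62, 1.58 and 0.913 FPKM in si-circRtn4. The value of si-circRtn4 3 was the lowest of any expressed Hox gene and rested on 41 reads. Hoxc5 shares 166 bases (5.37% of its exon length) with the first exon of Hoxc10, and how the authors counted reads in shared exons is not given in the sources used here.

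**Figure D3:**
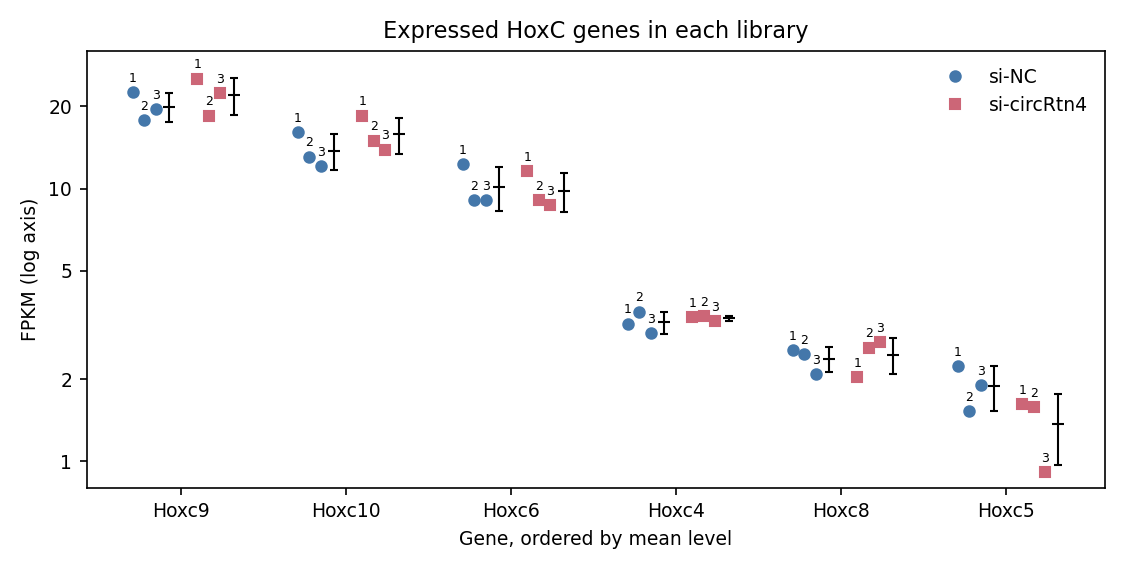
FPKM (log axis) of the 6 expressed HoxC genes in each library, circles for si-NC and squares for si-circRtn4, numbered by replicate, with the mean and SD of each group in black (3 libraries each). The groups overlap for every gene, and replicate 1 is the highest of its group in both groups for Hoxc9, Hoxc10, Hoxc6 and Hoxc5.

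The order Hoxc9, Hoxc10, Hoxc6, Hoxc4, Hoxc8, Hoxc5 was found in 6 of 6 libraries. Over the libraries, the values of Hoxc6 and Hoxc4 did not overlap, nor did those of Hoxc4 and Hoxc8. The other neighbors in the order overlapped and differed only within a library, where Hoxc9 was 1.23 to 1.61 times Hoxc10, Hoxc10 was 1.31 to 1.65 times Hoxc6, and Hoxc8 was 1.10 to 3.01 times Hoxc5. Hoxc9, Hoxc10 and Hoxc6 together made up 84.1% to 88.8% of the summed HoxC FPKM. That sum was 58.9, 47.5 and 47.6 FPKM in si-NC and 62.5, 50.1 and 52.0 FPKM in si-circRtn4, so that library 1 held the largest sum in each group. Among all tested genes, 20.9% (2665 of 12749) were highest in replicate 1 of both groups, and among the 6 HoxC genes 4 were.

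Among the expressed entries of the homeobox family, Hoxc9, Hoxc10 and Hoxc6 ranked in the upper part and Hoxc4, Hoxc8 and Hoxc5 in the lower part. The table holds 232 homeobox entries, of which 62 averaged at least 1 FPKM. Hoxc9 ranked 13, Hoxc10 18, Hoxc6 22, Hoxc4 44, Hoxc8 53 and Hoxc5 58. The top entry was Phox2a, a determinant of noradrenergic neurons, at 180 FPKM. Hoxc9 exceeded 87.9% of protein-coding genes and Hoxc5 exceeded 54.0%.

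The design then asks whether lowering circRtn4 changed the Hox genes. No Hox gene was called higher or lower in si-circRtn4 at an adjusted p under 0.05 in the limma test on log2(FPKM + 1). In the same fit, 4.36% of the 12749 genes tested were called higher (556) and 4.82% lower (615), and after scaling to TPM 980 higher and 400 lower. At an unadjusted p under 0.05, 0 of the 6 genes passed in the limma fit on log2(FPKM + 1), and the share of all genes passing was not computed. Hoxc10 averaged 13.8 ± 2.06 FPKM in si-NC and 15.8 ± 2.41 in si-circRtn4 (SD, n = 3 each). Its log2 difference was 0.19 with a 95% interval from -0.12 to 0.50 (limma, adjusted p = 0.434). Hoxc9 averaged 20 ± 2.39 and 22.1 ± 3.44 FPKM, a log2 difference of 0.13 with an interval from -0.17 to 0.44 (limma, adjusted p = 0.572). Both genes were higher in si-circRtn4 within 3 of 3 pairs of the same replicate number, with a mean difference below the SD of either group.

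Hoxc5 moved the other way without passing the test, from 1.88 ± 0.352 to 1.37 ± 0.396 FPKM, a log2 difference of -0.29 with an interval from -0.68 to 0.10 (limma, adjusted p = 0.33). The 3 other genes differed by less than 0.05 on the log2 scale, with intervals from -0.38 to 0.29 for Hoxc6, from -0.25 to 0.32 for Hoxc8 and from -0.17 to 0.25 for Hoxc4. The exact permutation test on single genes (two-sided) gave p = 0.3 for Hoxc5, 0.4 for Hoxc10, 0.5 for Hoxc9 and 0.6 for the rest, where 3 libraries against 3 can give 0.1 at the least. A missed threshold does not show that the groups are alike. On the reads recovered from FPKM and length, where 95% intervals can be read as folds, the si-circRtn4 to si-NC ratio lay between 0.913 and 1.36 for Hoxc9, between 0.924 and 1.46 for Hoxc10, between 0.765 and 1.25 for Hoxc6, between 0.824 and 1.35 for Hoxc4, between 0.791 and 1.40 for Hoxc8 and between 0.485 and 1.08 for Hoxc5. Limma-voom on these reads called no Hox gene, where it called 7.05% of 14484 genes higher and 5.59% lower.

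With the replicate number as a block, which treats libraries of the same number as pairs although no label names a pairing, the intervals of Hoxc9, Hoxc10 and Hoxc6 became narrower. Hoxc10 then had an interval from 0.06 to 0.32 around its log2 difference of 0.19 (limma with block, adjusted p = 0.0616), and Hoxc9 one from -0.01 to 0.28 (adjusted p = 0.16). The blocked fit called 9.29% of all genes higher and 9.75% lower, and no Hox gene was among them. Over the 24 fits run, 0 Hox genes were called, and the lowest adjusted p was this value of Hoxc10. At an unadjusted p under 0.05, the blocked fit had 1 Hox gene (Hoxc10) and the blocked limma-voom fit 3 (Hoxc10, Hoxc9 and Hoxc5). Limma-voom without si-NC 1 had 1. The share of all genes passing this unadjusted p was not computed, so these counts have no background to be read against. In the blocked fit that share cannot be smaller than the share called after adjustment.

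**Figure D4:**
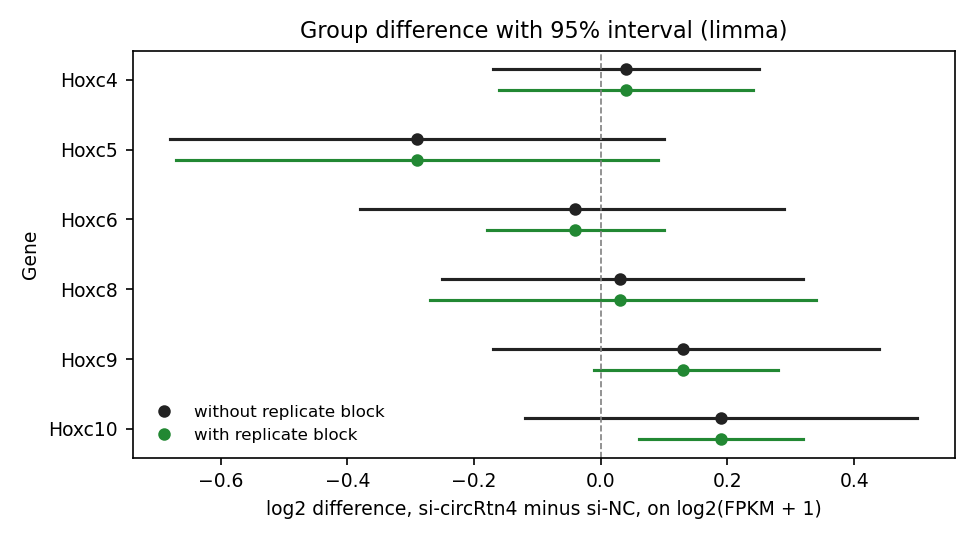
Log2 difference (si-circRtn4 minus si-NC, on log2(FPKM + 1)) of the 6 expressed HoxC genes with its 95% interval from limma, without (black) and with (green) the replicate block. Every black interval includes 0. Of the green intervals only that of Hoxc10, from 0.06 to 0.32, lies above 0, and its adjusted p is 0.0616.

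The ratio of 2 genes within a library does not depend on its scaling. Among the 6 ratios computed, those of Hoxc10 to 2 other genes separated the groups, and they were chosen after the values were seen, so no test is given. Hoxc10 was not set against Hoxc4 or Hoxc8. How often the ratios of other gene pairs separate the groups was not computed either, so the count cannot be read as a trait of Hoxc10. Hoxc10 was 1.31, 1.44 and 1.34 times Hoxc6 in si-NC and 1.60, 1.65 and 1.60 times in si-circRtn4. Hoxc10 was 7.20, 8.57 and 6.39 times Hoxc5 in si-NC and 11.5, 9.47 and 15.2 times in si-circRtn4. The ratio of Hoxc9 to Hoxc10 ran from 1.36 to 1.61 in si-NC and from 1.23 to 1.61 in si-circRtn4 and overlapped, as did the other 3 ratios.

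The HoxC cluster also holds 2 microRNA genes, Mir196a-2 between Hoxc10 and Hoxc9 and Mir615 in an intron of Hoxc5. Their mature sequences are shown with miR-24-3p, the microRNA whose binding to circRtn4 the study examined, because the seed (bases 2 to 8, in capitals) sets which transcripts a microRNA can pair with. The sequences are those of RefSeq (GRCm38.p6).
miR-196a-5p: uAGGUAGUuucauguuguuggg
miR-196a-2-3p: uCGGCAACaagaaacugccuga
miR-615-5p: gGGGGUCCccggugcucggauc
miR-615-3p: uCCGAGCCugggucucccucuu
miR-24-3p: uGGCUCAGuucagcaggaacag
Mir196a-2 had no read in any library, and Mir615 had 7 reads in all. The table was made from long RNA libraries, so a hairpin without reads says nothing of the mature microRNA. The 5 mature sequences have 5 different seeds. Sites of 7 bases that pair with a seed were searched on the transcript strand of the longest annotated 3′ UTR of each expressed HoxC gene. ACTACCT, which pairs with miR-196a-5p, occurred 2 times in Hoxc8 and in none of the other 5 genes, and 6.69% of the 10694 UTRs of tested genes hold it. CTGAGCC, which pairs with miR-24-3p, occurred 1 time in Hoxc8 and in none of the other 5, and 19.6% of those UTRs hold it. GGCTCGG, which pairs with miR-615-3p, was in none of the 6 and in 3.12% of those UTRs. The 3 sites of Hoxc8 are shown on the plus strand with the bases that pair with the seed in capitals, and the coordinates are those of the capitals.
Hoxc8 site for miR-24-3p, chr15:102993146-102993152: ctgctcccaccttCTGAGCCct
Hoxc8 site for miR-196a-5p, chr15:102992990-102992996: actcacaactctaACTACCTgt
Hoxc8 site for miR-196a-5p, chr15:102993747-102993753: aaatctttaacatACTACCTaa
Hoxc8, the gene with these sites, differed by 0.03 ± 0.12 (SE) on the log2 scale between si-circRtn4 and si-NC.

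Other transcripts inside the 4 clusters were nearly absent too. The spans hold 46 other genes, of which 4 had any read and 1 reached 1 FPKM. Of 18 long noncoding entries, 16 were at 0 in all libraries, among them Hotair, the antisense RNA between Hoxc12 and Hoxc11, and Hotairm1 in the HoxA span. The 1 entry above the level was Gm11539, a processed pseudogene in the HoxB span between the silent Hoxb13 and Hoxb9, at 1.15 ± 0.241 FPKM in si-NC and 1.65 ± 0.871 in si-circRtn4 (SD, n = 3 each, limma adjusted p = 0.599). Reads from near-identical copies can be assigned to a pseudogene, so its level is uncertain.

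The nearest protein-coding genes outside the clusters were partly active. Evx1 and Evx2, homeobox genes at the 5′ ends of HoxA and HoxD, were at 0 in every library, as were Skap2 and Ttll6. Calcoco1, 199 kb before HoxC, had 11.4 ± 1.95 FPKM in si-NC and 11.8 ± 1.70 in si-circRtn4 (limma adjusted p = 0.88), and Mtx2, 60.7 kb after HoxD, had 18 ± 1.5 and 18.6 ± 1.32 (adjusted p = 0.785). Smug1, which encodes a uracil-DNA glycosylase 116 kb beyond Hoxc4, had 25.1, 26.3 and 24.1 FPKM in si-NC and 18.5, 16.9 and 19.7 in si-circRtn4. Its groups did not overlap, and it fell by 0.44 on the log2 scale (SE 0.08, limma adjusted p = 0.0186). The call of Smug1 was lost without si-NC 2 (adjusted p = 0.0789), without si-circRtn4 1 (0.0556), without si-circRtn4 2 (0.0629) and after scaling to TPM (0.0538), with a range from 0.00631 to 0.0789 over 13 alternatives.

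Of the protein partners of the Hox factors, Meis2 and Pbx3 fell in si-circRtn4. Hox proteins bind DNA together with the TALE homeodomain cofactors of the Meis, Pbx and Pknox families, of which 9 were listed and 8 tested. None was called higher and these 2 were called lower, which is 25% of the 8 beside 4.82% of all genes called lower, and 3 were lower with the replicate block beside 9.75%. The median log2 difference was -0.238 over the 8 and 0.002 over all genes tested. Meis2 had 5.23, 5.25 and 4.68 FPKM in si-NC and 2.61, 2.02 and 2.36 FPKM in si-circRtn4. Every si-circRtn4 library lay below every si-NC library, and Meis2 fell by 0.86 on the log2 scale (SE 0.10, limma adjusted p = 0.00377). It stayed called in all 13 alternatives, with adjusted p from 0.000137 to 0.0255. Pbx3 had 11.4, 12.8 and 12.6 FPKM in si-NC and 8.51, 8.09 and 10.4 FPKM in si-circRtn4. Its groups did not overlap either, and it fell by 0.41 (SE 0.10, limma adjusted p = 0.0468), a call that was lost in 9 of 13 alternatives, among them the removal of any library except si-circRtn4 3 (adjusted p from 0.0161 to 0.15 over the 13).

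Further cofactors were named after their values were seen. Meis1 had 4.79 ± 0.209 FPKM in si-NC and 4.10 ± 0.588 in si-circRtn4 (SD, n = 3 each, limma adjusted p = 0.296). Pbx2, the most abundant of them at 34.0 to 39.6 FPKM, Pbx4, Meis3 and Pknox1 had overlapping groups, and Pknox2 was at 0 in every library. The summed markers of sympathetic neuroblasts were also lower in si-circRtn4, at 804 to 1100 FPKM against 1297 to 1379, and their part in the falls of Meis2 and Pbx3 was not tested. In bulk RNA, fewer cells of a type and less RNA per cell cannot be told apart.

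The regulators that hold Hox clusters silent or active were expressed and mostly stayed below the threshold. Of 27 Polycomb genes, which encode the silencing complexes, 26 were tested, 1 was called higher and 0 lower, which is 3.85% beside 9.19% of all genes called in either direction, with a median log2 difference of -0.055. The called gene was Pcgf3, a subunit of a variant Polycomb complex, with 9.89, 11.5 and 10.5 FPKM in si-NC and 14.1, 12.8 and 14.6 FPKM in si-circRtn4. Its groups did not overlap, and its log2 difference was 0.35 (SE 0.08, limma adjusted p = 0.0437), a call that was lost in 8 of 13 alternatives, among them the removal of any 1 library (adjusted p from 0.0118 to 0.121 over the 13). With the replicate block 2 Polycomb genes were called higher, Pcgf3 and Phc1, and 1 lower, Cbx8, where 9.29% of all genes were higher and 9.75% lower. Of the 21 trithorax and activator genes, 0 were called by limma, and with the block 3 were called lower: Kmt2a, the methyltransferase that keeps Hox genes active, Kmt2d and Aff4, beside 9.75% of all genes.

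Of 14 factors known to act on Hox genes, 8 were tested and 0 were called, beside 9.19% of all genes called in either direction. With so few genes tested, 0 calls is near that share. The median log2 difference was 0.029. Cdx1, Cdx2 and Cdx4, which activate central and posterior Hox genes in the embryo, were at 0 in every library. Of 5 genes known to respond to retinoic acid, 2 averaged at least 1 FPKM, Cyp26b1 at 87.8 FPKM and Stra6 at 2.65 FPKM, and Rarb was at 0 in every library. Cyp26a1 averaged 0.0848 FPKM and Dhrs3 0.0232 FPKM. The sum of the 5 was 86.7 to 119 FPKM in si-NC and 61.7 to 91 FPKM in si-circRtn4. Nearly all of it was Cyp26b1 (59.1 to 117 FPKM over the libraries), so it does not describe the 5 genes as a set. With the replicate block 3 of the 8 tested factors were called higher, among them the receptor genes Rarg and Rxra, and 1 lower, Rara, beside 9.29% and 9.75% of all genes. Rarg had 7.28, 4.07 and 3.97 FPKM in si-NC and 12.8, 8.07 and 7.83 FPKM in si-circRtn4 (limma with block, adjusted p = 0.00357, against 0.0815 without). Within each pair of replicate numbers si-circRtn4 was higher for Rarg. Library 1 was the highest of each group, as it was for 20.9% of all tested genes.

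Reads recovered from FPKM and length summed over all genes to 14100818 to 14748929 in si-NC and 13541198 to 15122063 in si-circRtn4. These sums of reads assigned to genes differed little between the groups. Of 12 markers of sympathetic neuroblasts, 11 averaged at least 1 FPKM. Markers of Schwann cells (1 of 5 at 1 FPKM), endothelium (0 of 3) and blood (0 of 2) were low. Of 6 fibroblast markers only Pdgfrb reached 1 FPKM, and their sum was 1.77 to 3.25 FPKM in si-NC and 4.56 to 6.97 in si-circRtn4. Most of this sum was Pdgfrb (1.39 to 6.18 FPKM over the libraries), so it does not describe the 6 genes as a set. The targeted circular RNA cannot be told from linear Rtn4 in a gene table, and Rtn4 itself had 61.0, 66.8 and 69.8 FPKM in si-NC and 50.1, 56.7 and 62.7 in si-circRtn4 (limma adjusted p = 0.216), which checks nothing about the knockdown of the circle.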

How the data were processed

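RNA sequencing of 6 libraries of transfected N2a cells was used, 3 per group, grouped and numbered by the sample labels. Columns of 6 other samples in the same table were not used. For each gene the authors deposited FPKM, the length, the biotype and coordinates. The submitters' processing notes name Bowtie 0.12.2 and the builds mm8 and mm9, but 98.1% of the genes had the coordinates of GENCODE M21 (GRCm38), as had 38 of the 40 Hox entries. The counting tool and its strand setting are not given in the sources used here, so genes overlapping on opposite strands may share reads. FPKM multiplied by length gave whole multiples of 1 read for 100% of values (tolerance 0.001).

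Genes averaging 1 FPKM or more were compared on the log2(FPKM + 1) scale by limma (version 3.58.1, mean-variance trend, R 4.3.3), and recovered reads by limma-voom where they averaged 10 or more. Calls were made at a Benjamini-Hochberg adjusted p under 0.05, over all genes tested. Fold changes on the log2(FPKM + 1) scale understate changes of low genes. The upper limit of a gene without reads was set at 3 reads. Both fits were tested without a block on simulated data that held no shared replicate effect, which does not check the blocked fits. The labels number the libraries but name no pairing. After subtraction of each group's mean, libraries of the same number correlated across genes at 0.331, 0.19 and 0.226, and those of different numbers at 0.00913 or less. The subtraction itself lowers the values of different numbers where those of the same number are positive, so this contrast cannot establish a pairing. A fit with the number as a block is given beside the unblocked one. Named genes were every Hox gene by level, the called genes of 4 lists (at most 3 per direction), and genes inside a cluster at 1 FPKM or more. Members and lists were chosen with earlier results of these data known. Some members of the lists and 1 homeobox are not reported here.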

Additional observations from a re-analysis of the deposited data

How the results depend on the processing

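The count of called Hox genes was 0 with each pseudocount, filter and scaling tried, on recovered reads, with the replicate block and with any library left out. Over all genes, 210 were called higher and 261 lower without a filter on low values, 980 and 400 on TPM, 1185 and 1243 with the replicate block, 1021 higher on recovered reads, and 163 to 407 higher and 217 to 419 lower with a library left out (lowest without si-NC 2). Lower Hox cofactors numbered 1 without a filter, with a filter at 0.1 FPKM and on TPM, 3 with a pseudocount of 0.1, on recovered reads and with the replicate block, and 1 to 2 with a library left out. Higher Polycomb genes numbered 0 under both filters, 2 on TPM, on recovered reads and with the block, and 0 with any library left out, and 1 was lower on recovered reads and with the block. Lower trithorax genes numbered 1 with equal medians and on recovered reads, and 3 with the block. Higher inducers numbered 3 on recovered reads and with the block and 0 to 1 with a library left out, and 1 was lower with the block. The sign of the smallest log2 differences changed: Hoxc6 was 0.04 on TPM and between -0.16 and 0.09 with a library left out (-0.17 to 0.12 on recovered reads), Hoxc8 between -0.03 and 0.13 (-0.03 to 0.18), Hoxc4 between -0.0066 and 0.09, Calcoco1 between -0.02 and 0.17 and Mtx2 between -0.02 and 0.11. Hoxc9, Hoxc10 and Hoxc5 kept their sign in each alternative. The cause of these changes was not tested. Depth limits Hoxc5 most, at 41 to 104 reads per library.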
